A study of Mus musculus with 4 samples.

Results

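The genes described here are the 10 core ligand and receptor genes of vascular endothelial growth factor (VEGF) and angiopoietin signalling: the ligands Vegfa, Vegfb, Vegfc, Angpt1 and Angpt2, the receptor tyrosine kinases Flt1, Kdr, Flt4 and Tek, and the co-receptor Nrp1. The list was drawn up with earlier results of these data known, and its genes were matched by symbol. All 10 were found among the 24468 genes of a table of 17 clusters of kidney nuclei. They were also found among the 21312 genes of a table that compares proximal tubule nuclei of treated and untreated mice. Nuclei were isolated from the cortex together with the outer medulla of male C57BL/6 mouse kidneys, and their RNA was sequenced nucleus by nucleus. Treated mice, called Cis9w, had 4 weekly injections of cisplatin at 8 mg/kg, and their kidneys were taken 9 weeks after the first dose. The control group, CT9w, was untreated. GEO lists 2 samples per group and 4 in all, and no genetic change is named in either group. Cisplatin, a platinum compound given against cancer, is toxic to the proximal tubule, which is the part of the nephron that takes back most of the filtered solute.

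VEGF ligands bind receptor kinases on endothelial cells. Vegfa binds Flt1 and Kdr, of which Kdr carries most of the growth and survival signal while Flt1 binds the ligand tightly and also has a soluble form that sequesters it. Vegfb binds Flt1, Vegfc binds Flt4 and Kdr, and Nrp1 strengthens the binding of Vegfa to Kdr and is itself a receptor for class 3 semaphorins. Angpt1 activates Tek and keeps vessels quiescent, whereas Angpt2 binds the same receptor and can oppose Angpt1 where vessels are remodelled. In the kidney, podocytes are known to supply Vegfa to the glomerular capillaries, and tubules to supply it to the peritubular capillaries.

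Each value is a level in normalised unique molecular identifiers (UMIs, that is, RNA molecules counted once each) per nucleus, averaged by the authors over all nuclei of a cluster or of a group. The columns carry no sample names, and the sources used here do not say whether 1 or 2 samples per group entered either table, so the spread between replicates is unknown. The 95% intervals given are exact Poisson intervals for levels and Clopper-Pearson intervals for ratios of levels, and they cover counting error only. The cluster pools held 254460 (mixed-2) to 7425098 (PT-S2/S3) UMIs, and the proximal tubule pools held 5123727 in CT9w and 8557662 in Cis9w. The cluster names are the authors', and the defining markers of the clusters that matter most here were in place: all 10 podocyte markers were highest in the cluster Podocyte, 11 of 12 fibroblast, pericyte and mesangial markers in Mixed-1, and 10 of 12 endothelial markers in the endothelial cluster EC2. Of the other endothelial markers, Sox18 was highest in EC1, from 5 UMIs, and Adgrf5 in the intercalated cell cluster IC-A/IC-B. Of the 6 lymphatic markers, Lyve1 had 0 UMIs in both EC1 and EC2 and only 3 over all clusters. Reln (58 UMIs), Mmrn1 (9 UMIs) and Ccl21a (4 UMIs) were highest in EC2. Prox1 was highest in TAL, the thick ascending limb, with 24 UMIs in EC2, and Pdpn was highest in Podocyte.

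Promoter sequences are shown for 3 receptor genes whose levels moved together across the clusters, Flt1, Kdr and Tek, and for Vegfa, whose levels followed another order, so that the sequences can be read beside those patterns. Each is the RefSeq window of 250 bases before the transcription start, 5′ to 3′ on the strand of the gene, on GRCm38.p6: chr5:147726012-147726261 (minus strand) for Flt1, chr5:75978456-75978705 (minus) for Kdr, chr4:94739039-94739288 (plus) for Tek and chr17:46032378-46032627 (minus) for Vegfa. Capitals in the receptor genes mark matches on either strand to GGAAG, a form of the core bound by ETS factors such as Erg. Those in Vegfa mark GGGCGG, the GC box.
Flt1: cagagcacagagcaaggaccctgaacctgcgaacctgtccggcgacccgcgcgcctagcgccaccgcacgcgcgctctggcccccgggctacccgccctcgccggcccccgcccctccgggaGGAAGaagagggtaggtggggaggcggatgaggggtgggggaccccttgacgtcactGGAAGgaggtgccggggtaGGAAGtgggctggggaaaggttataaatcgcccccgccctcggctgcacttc
Kdr: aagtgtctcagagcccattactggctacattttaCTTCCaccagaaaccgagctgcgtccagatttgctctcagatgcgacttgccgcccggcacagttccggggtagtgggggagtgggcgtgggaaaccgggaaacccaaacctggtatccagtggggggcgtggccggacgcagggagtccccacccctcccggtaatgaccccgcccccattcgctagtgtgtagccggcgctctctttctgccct
Tek: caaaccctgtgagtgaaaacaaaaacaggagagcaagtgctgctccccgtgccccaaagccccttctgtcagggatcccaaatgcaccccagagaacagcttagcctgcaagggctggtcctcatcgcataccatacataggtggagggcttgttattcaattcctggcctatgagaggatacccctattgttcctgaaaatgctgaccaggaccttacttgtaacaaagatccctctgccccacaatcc
Vegfa: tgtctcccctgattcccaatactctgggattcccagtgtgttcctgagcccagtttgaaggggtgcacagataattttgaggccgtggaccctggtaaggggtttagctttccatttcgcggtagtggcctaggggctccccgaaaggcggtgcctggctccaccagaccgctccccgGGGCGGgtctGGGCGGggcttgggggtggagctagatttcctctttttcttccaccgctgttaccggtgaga

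The ETS core, counted in the form GGAAG alone, had 3 matches in the Flt1 window, 1 in that of Kdr and 0 in that of Tek. It also had 1, left in lower case, in that of Vegfa. Among all 32851 windows of the same length, 64.1% held at least 1 match and 10.7% at least 3. The shorter form GGAA, which the printed Tek window holds on the other strand, was not counted. The GC box had 2 matches in the Vegfa window and, left in lower case, 3 in that of Flt1, 2 in that of Kdr and 0 in that of Tek. Of all windows 32.7% held at least 1 and 16.7% at least 2. For the core of the hypoxia response element only the form ACGTG, on either strand, was counted. It was not among the letters of any window of the 8 members with a RefSeq entry, and 16.6% of all windows held it. The form GCGTG, which the printed Kdr window holds and the Flt1 window holds on the other strand, was not counted. In these 8 windows 0 bases belonged to matches of more than 1 of the 3 motifs. Angpt1 and Angpt2 had no entry in the table. A match is a description of the letters only.

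Across the 17 clusters the receptors were highest in an endothelial cluster, and the ligands other than Vegfc were highest elsewhere. Flt1, Kdr, Flt4, Tek and Nrp1 were highest in EC2, Vegfc in EC1, Vegfa in Podocyte, Angpt1 in PT-S1 (the first proximal tubule segment), Angpt2 in PT-injury/repair and Vegfb in the thick ascending limb (TAL). In all, 6 of the 10 genes were highest in an endothelial cluster, beside 13.4% of the 13433 genes with at least 100 UMIs over the clusters. None of the 10 leading clusters changed when leading was read from the fold change against all other nuclei in the authors' deposited table.

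**Figure D1:**
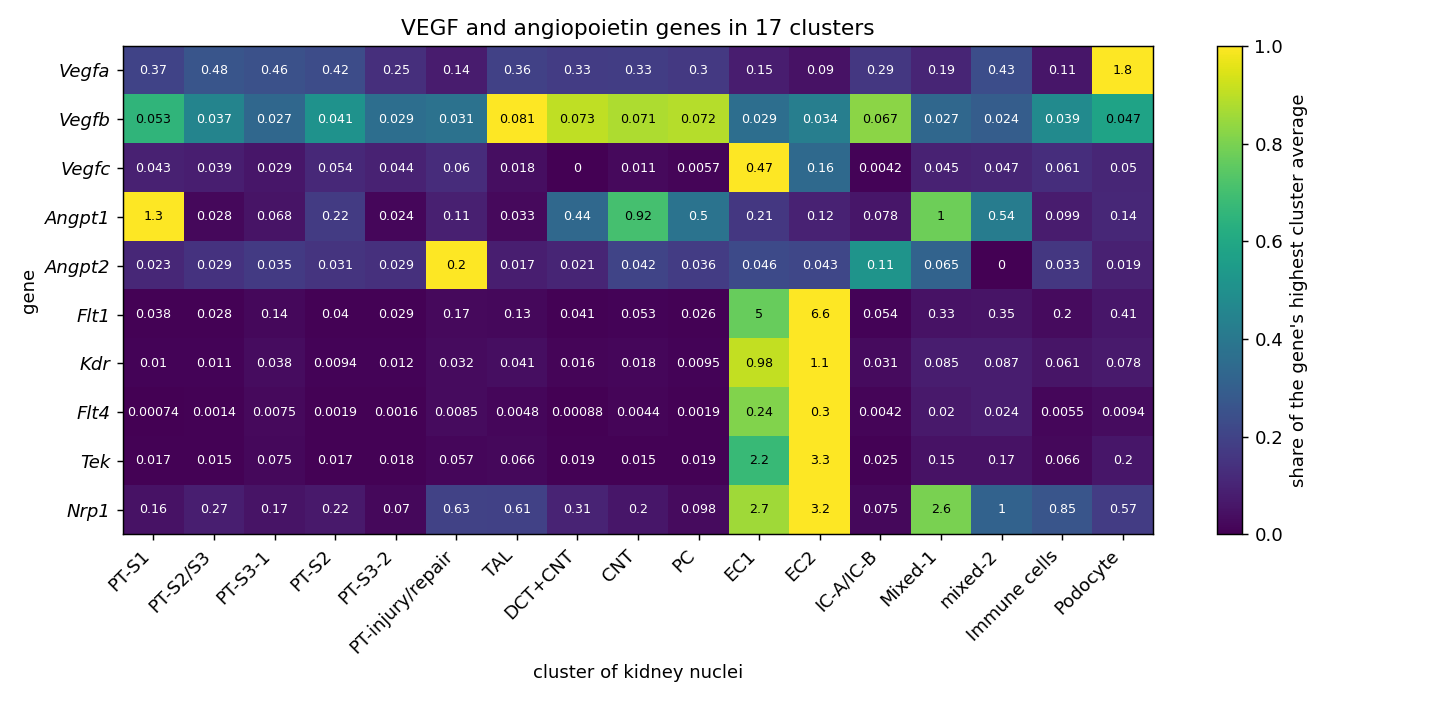
Levels of the 10 genes (rows, ligands first, then receptors) in the 17 clusters (columns). Each cell prints the average in normalised UMIs per nucleus, and its colour gives that average as a share of the gene's own highest cluster, so colours compare clusters within a row only. The receptor kinases are bright in EC1 and EC2 alone, Vegfa in Podocyte, Angpt1 in PT-S1, Mixed-1 and CNT, and Angpt2 in PT-injury/repair.

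Vegfa (chr17:46016993-46032369, minus strand, on GRCm38 with GENCODE M21, as for the genes that follow), the main ligand of the family, reached 1.83 normalised UMIs per nucleus in Podocyte (95% interval 1.69 to 1.99, from 587 UMIs). The next level was 0.485 in PT-S2/S3 (0.462 to 0.508), and the interval of Podocyte overlapped that of no other cluster. PT-S3-1 at 0.456, mixed-2 at 0.434 and PT-S2 at 0.424 followed with overlapping intervals. Then came PT-S1 at 0.366, TAL at 0.355, the connecting tubule cluster CNT at 0.329, DCT+CNT at 0.328, the principal cell cluster PC at 0.303 and IC-A/IC-B at 0.293, each overlapping its neighbour. PT-S3-2 stood at 0.246 and Mixed-1 at 0.190. The lowest levels were in EC1 at 0.150, PT-injury/repair at 0.142, Immune cells at 0.111 and EC2 at 0.0905. Vegfa UMIs were counted in every cluster, and tubule clusters other than PT-injury/repair lay between 0.246 and 0.485. The 6 proximal tubule clusters held 67.0% of the Vegfa UMIs (65.9% to 68.1%) and Podocyte 8.64% (7.98% to 9.33%). Of all UMIs the 6 clusters held 65.9%.

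Vegfb (chr19:6982473-6987651), a ligand of Flt1, had low levels in every cluster. Its levels ran from 0.0237 in mixed-2 (3 UMIs) to 0.0808 in TAL (0.0668 to 0.0968). The highest 5 were TAL, DCT+CNT at 0.0732, PC at 0.0719, CNT at 0.0707 and IC-A/IC-B at 0.0668, all distal nephron and collecting duct clusters. At every step of its order the intervals of neighbouring clusters overlapped. The interval of TAL nevertheless lay above that of each proximal tubule cluster, of which PT-S1 was highest at 0.0530 (0.0447 to 0.0624).

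Vegfc (chr8:54077606-54187096), the ligand of Flt4, was the ligand with an endothelial maximum. It reached 0.466 in EC1 (0.393 to 0.549, 143 UMIs) and 0.159 in EC2 (0.125 to 0.200, 74 UMIs), and these 2 intervals overlapped neither each other nor that of a further cluster. EC1 and EC2 held 26.1% of the Vegfc UMIs (23.1% to 29.2%), beside 4.29% of all UMIs. The 6 proximal tubule clusters held 63.1% of them (59.7% to 66.4%), beside 65.9% of all UMIs. From Immune cells (0.0608) and PT-injury/repair (0.0598) down to PT-S3-1 (0.0286) the intervals of neighbours overlapped. The distal clusters were lower, with 0.0179 in TAL, 0.0111 in CNT (5 UMIs), 3 UMIs each in PC and IC-A/IC-B, and 0 in DCT+CNT, where the Poisson interval of 0 UMIs reaches 0.00325 and a limit of 3 UMIs would be 0.00265.

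Angpt1 (chr15:42424723-42676977), the activating ligand of Tek, had several high clusters that belong to different cell types. PT-S1 stood at 1.30 (1.26 to 1.35, 3513 UMIs) and held 56.1% of the UMIs of the gene (54.9% to 57.3%). Mixed-1, where the fibroblast, pericyte and mesangial markers were highest, followed at 1.01 (0.922 to 1.11), and CNT at 0.919 (0.833 to 1.01) overlapped it. Below them were mixed-2 at 0.544, PC at 0.496 and DCT+CNT at 0.439. In the proximal tubule the level was 1.30 in PT-S1, 0.224 in PT-S2, 0.0677 in PT-S3-1 (0.0494 to 0.0906), 0.0284 in PT-S2/S3 and 0.0236 in PT-S3-2. TAL, at 0.0331 (0.0244 to 0.0439), overlapped PT-S2/S3 and PT-S3-2 but not PT-S3-1. An antisense gene, Gm17473, overlaps the start of Angpt1 and also led in PT-S1, at 0.0204 (55 UMIs). The sources used here do not say whether the counting used strand.

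Angpt2, the context-dependent ligand of Tek, was highest in PT-injury/repair at 0.204 (0.174 to 0.237, 167 UMIs), an interval that overlapped no other. IC-A/IC-B followed at 0.106 (0.0833 to 0.132) and Mixed-1 at 0.0648 (0.0434 to 0.0931). The endothelial clusters stood at 0.0456 in EC1 (14 UMIs) and 0.0431 in EC2 (20 UMIs), within the range of tubule clusters such as CNT at 0.0420 and PC at 0.0360. In mixed-2 there were 0 UMIs, whose Poisson interval reaches 0.0291 (a limit of 3 UMIs would be 0.0237). Angpt2 (chr8:18690263-18741562, minus strand, GRCm38) lies inside Mcph1, a gene on the other strand (chr8:18595131-18803189). Whether the counting separated reads of the pair by strand is not stated in the sources used here. Mcph1 was highest in IC-A/IC-B at 0.377 (0.333 to 0.425) and second in PT-injury/repair at 0.210 (0.180 to 0.244), so both genes had the same pair of leading clusters in opposite order. The part of this overlap in the Angpt2 levels was not tested.

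Flt1 (chr5:147561604-147726011), Kdr (chr5:75932827-75978458), Flt4 (chr11:49609263-49652739) and Tek (chr4:94739289-94874976), the receptor kinases, were all highest in the endothelial clusters. Flt1 stood at 6.55 in EC2 (6.32 to 6.79) and 5.04 in EC1 (4.79 to 5.29), and next at 0.406 in Podocyte. Kdr stood at 1.08 in EC2 (0.991 to 1.18) and 0.984 in EC1 (0.876 to 1.10), with mixed-2 next at 0.0868. For Flt4, the receptor of Vegfc, the levels were 0.297 in EC2 (0.250 to 0.351) and 0.241 in EC1 (0.189 to 0.303), then 0.0237 in mixed-2 from 3 UMIs. Tek, the angiopoietin receptor, stood at 3.27 in EC2 (3.11 to 3.44), 2.20 in EC1 (2.04 to 2.37) and next at 0.200 in Podocyte. EC1 and EC2 together held 78.6% of the Flt1 UMIs (77.5% to 79.6%), 69.2% of Kdr (66.5% to 71.9%), 79.1% of Flt4 (73.7% to 83.8%) and 78.9% of Tek (77.4% to 80.4%), whereas these clusters held 4.29% of all UMIs.

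Outside the endothelial clusters these 4 genes had low levels, as had most endothelial markers. Free RNA in droplet data leaves low counts of a gene in nuclei of every type, so each level was set beside those of 11 endothelial markers with at least 100 UMIs (Emcn, Pecam1, Erg and others), all as a percent of their own EC2 level. Over the 15 other clusters Flt1 lay between 0.404% and 6.19% of its EC2 level, Kdr between 0.866% and 8.01%, Flt4 between 0.249% and 7.96% and Tek between 0.455% and 6.11%. Flt1 and Tek were each at or below the median of the markers in 14 of the 15 clusters, and Flt4 in 10. Kdr went the other way: it was above the median in 14 clusters, and above at least 9 of the 11 markers in 8. The markers themselves are not all confined to endothelium, since Adgrf5 reached 119% of its EC2 level in IC-A/IC-B, Eng 46.7% in Mixed-1 and Ptprm 14.9% in TAL. The top of their range is therefore no limit for background, and whether the low kinase levels are free RNA or expression was not tested.

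Nrp1 (chr8:128358604-128503363), the co-receptor, differed from the kinases in this respect. It was above the median of the markers in all 15 other clusters, and above all 11 markers in 11 of them. EC2 at 3.21 (3.04 to 3.37) and EC1 at 2.75 (2.57 to 2.94) were followed by Mixed-1 at 2.56 (2.42 to 2.72), which overlapped EC1 and equalled 80.0% of the EC2 level. Then came mixed-2 at 1.01, Immune cells at 0.845, PT-injury/repair at 0.634, TAL at 0.614 and Podocyte at 0.574. The lowest levels were 0.0751 in IC-A/IC-B and 0.0697 in PT-S3-2. EC1 and EC2 held 28.98% of the Nrp1 UMIs (27.99% to 29.98%).

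**Figure D2:**
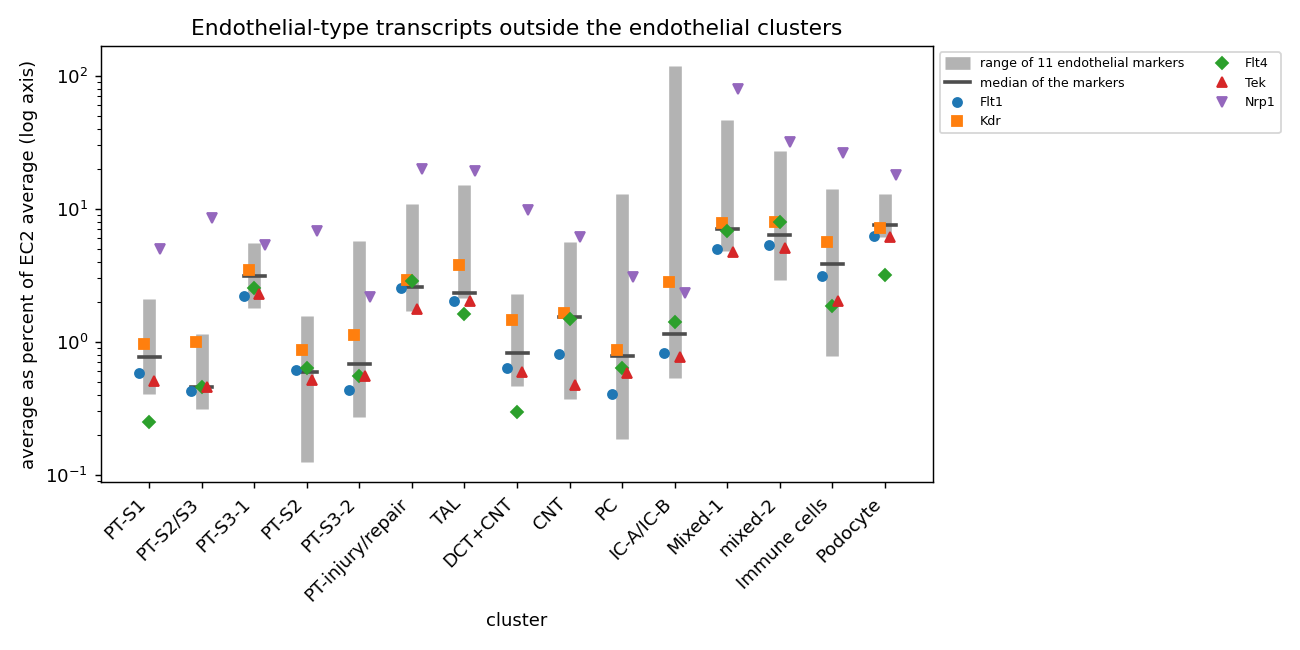
Average in each of the 15 non-endothelial clusters as a percent of the same gene's average in EC2 (log axis). Grey bars span 11 endothelial markers, with their median as a dark line, and coloured symbols are Flt1, Kdr, Flt4, Tek and Nrp1. Adgrf5 stretches the bar of IC-A/IC-B and Eng that of Mixed-1. Flt1 and Tek are at or below the dark line in 14 clusters, Kdr is above it in 14, and Nrp1 lies above the bars in 11.

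The genes whose pattern was most like that of each member were taken from all genes with at least 100 UMIs, by Pearson's r of log2(average + 0.01) over the 17 clusters. These points share nuclei pools of unequal depth, and r is given as a description. Flt1 was nearest to Ptprb (r = 0.995), a phosphatase that acts on Tek, to Erg, an endothelial ETS factor (0.993), and to Tek (0.992). The nearest to Kdr were Erg, D5Ertd615e and Ptprb (0.989 to 0.992), and the nearest to Flt4 were Hspa12b, Btnl9 and Ccm2l (0.982 to 0.990). Tek was nearest to Ptprb and Egfl7 (0.996 each) and Emcn (0.995). Nrp1 had lower values, with Map7d1 at 0.94, Igf1 at 0.92 and St3gal4 at 0.92. Among the ligands the nearest genes were Acvr1b for Vegfb (0.96), Pdia5 for Vegfc (0.90), Insig2 for Angpt2 (0.87), Tbx2 for Angpt1 (0.85) and Mul1 for Vegfa (0.81). Between members, r was 0.95 to 0.99 for each pair of Flt1, Kdr, Flt4 and Tek, 0.78 to 0.86 for Nrp1 with these 4, 0.74 to 0.77 for Vegfc with them, and -0.47 to -0.35 for Vegfa with them. Of the 30 nearest genes (3 for each member), 9 were also named by Spearman's rho and 19 without Mixed-1 and mixed-2.

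EC1 and EC2 differed in ligand and receptor levels. Vegfc was 2.92-fold higher in EC1 than in EC2 (95% counting interval 2.19 to 3.92), Angpt1 1.70-fold (1.17 to 2.47; 64 and 57 UMIs) and Vegfa 1.66-fold (1.07 to 2.58; 46 and 42 UMIs). Lower in EC1 were Tek at a ratio of 0.673 (0.614 to 0.737), Flt1 at 0.768 (0.722 to 0.817) and Nrp1 at 0.858 (0.787 to 0.934), but after division by the summed endothelial markers Flt1 stood at 1.02 and Nrp1 at 1.14. The intervals of Kdr (0.908, 0.784 to 1.05), Flt4 (0.811, 0.603 to 1.08), Vegfb (0.851, 0.331 to 2.04) and Angpt2 (1.06, 0.495 to 2.20) held 1. So 3 members were higher and 3 lower by the counting interval, beside 8.9% and 5.09% of the 13433 genes with at least 100 UMIs.

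The endothelial markers as a whole were also lower in EC1, where their summed level was 24.3 against 32.3 in EC2, and 8 of the 12 had an interval below 1. With that sum as the scale, 5 members were higher in EC1 and 1 (Tek, 0.894) was lower. Arterial and descending vasa recta markers were higher in EC1 in 7 of 8 cases, among them Sox17 (ratio 2.21), Gja5 (3.36) and Jag1 (3.65). Over the 17 clusters 4 of the 8 were highest in EC1. Jag1 was highest in IC-A/IC-B, Fbln5 in Mixed-1, Slc14a1 in Immune cells and Cldn5 in Podocyte. Of the peritubular capillary markers 4 of 7 were lower in EC1, among them Plvap (0.721), and 1, Npr3 (1.35), was higher. Of the 8 glomerular markers 1, Pi16 (3.02, from 14 and 7 UMIs), was higher in EC1. The 1 that was lower, at 0.612, was Ehd3, which is restricted to glomerular capillaries among kidney endothelia. The median ratio of these markers was 1.22, and their summed level was 0.968 in EC1 and 0.920 in EC2. Proximal tubule and podocyte markers were also counted in these clusters. Vegfa in EC1 was 30.9% of its PT-S2/S3 level, while the 10 proximal tubule markers ran from 7.55% (Hnf4a) to 174% (Slc5a2), 7 below and 3 above Vegfa. It was 8.18% of its Podocyte level, while the 10 podocyte markers ran from 0.350% (Ptpro) to 39.6% (Podxl), 6 below and 4 above. In EC2 Vegfa was 18.7% and 4.94% of these levels. The summed level of the 10 proximal tubule markers was 4.17 in EC1 and 2.53 in EC2, and that of the podocyte markers 4.11 and 3.07. Angpt1, also higher in EC1, was highest in PT-S1. The part of such RNA in the Vegfa and Angpt1 differences between EC1 and EC2 was not tested.

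**Figure D3:**
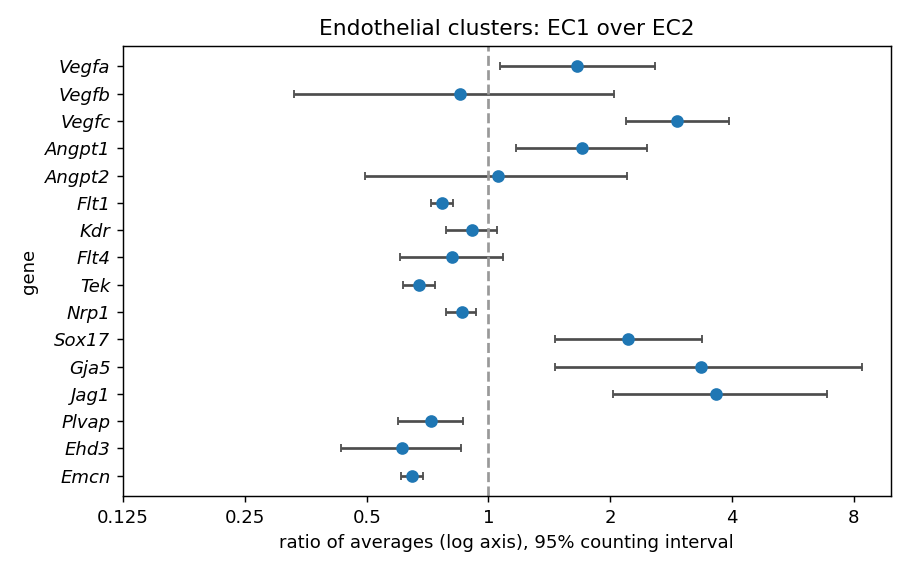
Ratio of the EC1 average to the EC2 average (log axis) for the 10 genes and for 6 markers of endothelial subtypes, with 95% counting intervals. A dashed line marks a ratio of 1. Vegfc (2.92) lies to the right with the arterial markers Sox17, Gja5 and Jag1, and Tek (0.673) to the left with Plvap, Ehd3 and Emcn. Of the 8 glomerular markers Ehd3 is the only 1 shown and the only 1 with an interval below 1.

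Within the proximal tubule, the cluster PT-injury/repair was set against the other 5 clusters pooled. This cluster carries the injury markers Havcr1 (0.346 against 0.00236) and Vcam1 (0.405 against 0.00418), and the proximal tubule markers Lrp2 and Slc34a1 were lower there. Angpt2 was 7.24-fold higher in it (5.97 to 8.77; 0.204 against 0.0281) and Nrp1 3.26-fold (2.95 to 3.59; 0.634 against 0.195). Vegfa was lower, at a ratio of 0.352 (0.290 to 0.423; 0.142 against 0.403). Each of these 3 directions held against each of the other 5 clusters alone, with Vegfa between 0.246 and 0.485, Angpt2 between 0.0226 and 0.0346 and Nrp1 between 0.0697 and 0.272 in them. Mcph1, the gene around Angpt2, was 2.01-fold higher (1.70 to 2.36) in PT-injury/repair.

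Angpt1 was lower in PT-injury/repair against the pool, at 0.296 (0.238 to 0.364; 0.112 against 0.380), and this direction rested on PT-S1 and PT-S2. Against PT-S1 the ratio was 0.0863 and against PT-S2 0.502, but it was 1.66 against PT-S3-1, 3.96 against PT-S2/S3 and 4.76 against PT-S3-2. Vegfc was 1.38-fold higher (1.01 to 1.86) against the pool, but 1.12-fold against PT-S2, where the intervals of the 2 levels overlap, and the interval of Vegfb held 1 (0.769, 0.492 to 1.15).

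The receptor kinases were higher in PT-injury/repair than in the pool, as were the endothelial markers. Flt1 had a ratio of 4.17 (3.41 to 5.06), Flt4 of 4.95 (1.76 to 12.3, from 7 UMIs), Tek of 2.89 (2.06 to 3.97) and Kdr of 2.59 (1.63 to 3.96). For the 11 endothelial markers with at least 100 UMIs the ratio ran from 1.83 (Adgrf5) to 6.22 (Ptprm), with a median of 3.25, and the 4 kinases lie inside that range. Against PT-S3-1 alone the ratios came to 1.15 for Flt1, 1.14 for Flt4, 0.844 for Kdr and 0.763 for Tek, so that the direction of Kdr and Tek flipped. In all, 7 of the 10 genes had an interval above 1 and 2 below 1 against the pool, beside 34.4% and 19.3% of genes with at least 100 UMIs.

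**Figure D4:**
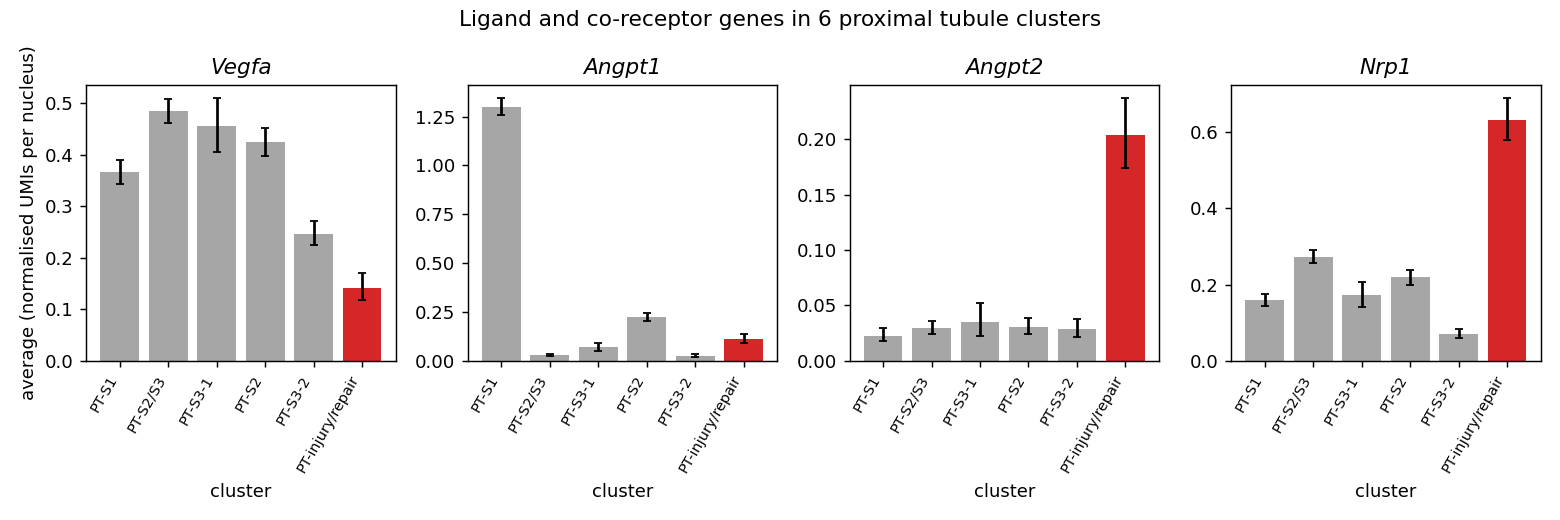
Averages of Vegfa, Angpt1, Angpt2 and Nrp1 in the 6 proximal tubule clusters, in normalised UMIs per nucleus, with 95% Poisson intervals. PT-injury/repair is in red, and each panel has its own vertical scale. In PT-injury/repair Vegfa (0.142) is below and Angpt2 (0.204) and Nrp1 (0.634) are above the other 5 clusters, while Angpt1 is highest in PT-S1 (1.30).

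The comparison of treated with untreated mice was deposited for proximal tubule nuclei alone, on a scale of its own, so its levels are not set beside those of the clusters. A gene was called when its p was under 0.05 in the authors' deposited table. By that rule 0 of the 10 genes were called, beside 2.13% of all 21312 genes (0.995% higher and 1.14% lower in Cis9w) and 3.29% of the genes at or above the median level of 0.0154 over genes. Of the 10, 9 reach that level and Flt4 does not. The lowest p of the 10 in the authors' deposited table was 0.157, for Flt1, and 7 of the 10 had a p of 1 there, as had 82.4% of all genes. How the p-values were made is not stated.

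Among the ligands, Vegfa was 0.555 in CT9w (1016 UMIs) and 0.501 in Cis9w (1534 UMIs), a ratio of 0.904 (0.835 to 0.980). Angpt1 stood at 0.492 and 0.531, a ratio of 1.08 (0.994 to 1.17), and its counting interval held 1. Angpt2 was 0.0704 in CT9w (129 UMIs) and 0.0494 in Cis9w (151 UMIs), a ratio of 0.701 (0.550 to 0.893), while Mcph1 had a ratio of 1.06 (0.914 to 1.23). Vegfb was 0.0399 and 0.0634, a ratio of 1.59 (1.21 to 2.11; 73 and 194 UMIs). Vegfc was 0.0595 and 0.0660, a ratio of 1.11 (0.875 to 1.41). For Vegfa and Angpt1, the ligands with the most UMIs, the intervals thus reached no lower than 0.835 and no higher than 1.17. The summed level of the 10 injured tubule markers came to 0.328 in the control pool and 1.12 in the treated one, and 6 of these 10 were called higher. Angpt2 was lower in the Cis9w pool although it was highest in the cluster PT-injury/repair and the injury markers were higher in that pool. The pools and the clusters may rest on different mice.

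Among the receptors, Flt1 had the widest difference, 0.0355 in CT9w (65 UMIs) against 0.0817 in Cis9w (250 UMIs), a ratio of 2.30 (1.75 to 3.07). Tek was 0.0218 (40 UMIs) and 0.0360 (110 UMIs), a ratio of 1.65 (1.14 to 2.43). Kdr, at 0.0180 and 0.0167, had a ratio of 0.925 (0.586 to 1.48; 33 and 51 UMIs), and Flt4 had 6 and 5 UMIs (0.499, 0.120 to 1.96). Beside these, the ratio of the 11 endothelial markers ran from 1.12 (Ptprm) to 2.49 (Cd34) with a median of 1.65, all 11 above 1, and none of the 12 markers of the list was called. Their summed level was 0.399 in CT9w and 0.537 in Cis9w, with Sox18 at 0 UMIs in CT9w. Flt1 and Tek lie inside that range. Nrp1 was 0.265 and 0.345, a ratio of 1.30 (1.17 to 1.46; 485 and 1057 UMIs). The part of endothelial RNA, of the injured nuclei or of differences between mice in these ratios was not tested.

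By counting error alone, which leaves out any spread between mice, 4 members were higher in Cis9w (Vegfb, Flt1, Nrp1 and Tek), 2 lower (Vegfa and Angpt2) and 4 had intervals that held 1. The same rule marks 12.4% of all genes as higher and 9.58% as lower, and 19.6% and 16.1% of the genes at or above the median level. In the authors' deposited table the median log2 fold change was 0.13 for the 10 genes and 0.04 for all genes.

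**Figure D5:**
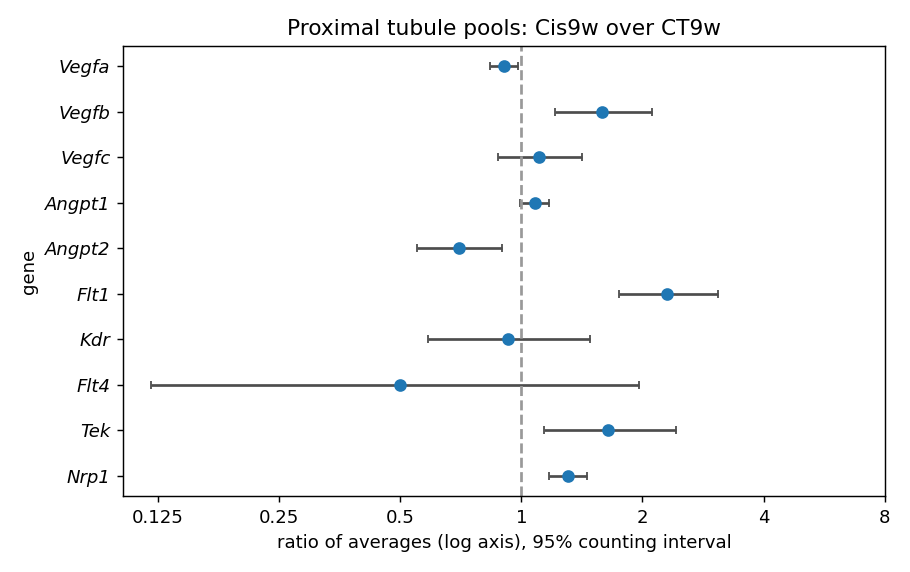
Proximal tubule average in Cis9w divided by that in CT9w (log axis) for the 10 genes, with 95% intervals that cover counting error only. A dashed line marks a ratio of 1. Vegfb, Flt1, Tek and Nrp1 lie above 1, Vegfa and Angpt2 below it, and no gene was called by the p in the authors' deposited table.

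Other genes of the pathway were read from 6 lists: further ligands and receptors, class 3 semaphorins, regulators of the hypoxia response, its targets, genes of signalling below the receptors, and inhibitors of vessel growth. The proximal tubule table held 70 of these 71 genes. Of these, 3 were called higher in Cis9w, 1 lower and 66 in neither direction in the authors' deposited table, beside 0.995% called higher and 1.14% called lower of all genes, and with a median log2 fold change of 0.23 against 0.04. Plxna2, a plexin that works with neuropilins as a semaphorin receptor, rose from 0.146 to 0.284, with p = 0.041 in the authors' deposited table. Col18a1, which encodes the precursor of the vessel inhibitor endostatin, rose from 0.0786 to 0.193 (p = 0.0026 in the authors' deposited table). Thbs1, the vessel inhibitor thrombospondin, rose from 0.00491 to 0.0219 (9 and 67 UMIs; p = 0.044 in the authors' deposited table). Car9, a carbonic anhydrase and a textbook hypoxia target, fell from 0.0278 to 0.00915 (51 and 28 UMIs, p = 0.0097 in the authors' deposited table). Among the clusters Car9 was highest in PT-S3-1 (0.0271) and PT-S3-2 (0.0253). In PT-injury/repair against the other 5 proximal tubule clusters, the ratio was 20.3 for Thbs1, 9.38 for Col18a1, 1.89 for Plxna2 and 0.157 for Car9. The part of the make-up of the nuclei pools in the Cis9w differences was not tested.

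By list, 1 of 10 further ligands and receptors (Plxna2) and 2 of 10 inhibitors (Thbs1 and Col18a1) were called higher, and 1 of 12 hypoxia targets (Car9) was called lower. Of all genes 0.995% and 1.14% were called in these directions. The counts are small, and whether any list differs from all genes was not tested. No gene was called among 7 semaphorins, 10 hypoxia regulators and 21 signalling genes. The transcription factor genes of the hypoxia response, which act upstream of Vegfa, had ratios of 1.17 for Hif1a (1.02 to 1.35), 1.03 for Epas1 (0.857 to 1.24) and 0.963 for Arnt (0.871 to 1.07). Ppargc1a, a coactivator known to raise Vegfa, had a ratio of 1.09 (1.02 to 1.16). None of these 4 was called. Sema3c, a semaphorin that binds neuropilins, had a level of 0.658 in the control pool and 1.15 in the treated one (ratio 1.74, 1.63 to 1.86), with p = 0.099 in the authors' deposited table.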

How the data were processed

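Nuclei were profiled by droplet 3' single-nucleus RNA sequencing. The submitters' processing notes name Cell Ranger 5.0.1 and mm10. The sources used here do not give the filters on nuclei, the clustering, the treatment of doublets, the strand setting or the test behind the p-values.

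The authors deposited 2 tables of pooled values. Per the file headers, each gene has averages with their log2 fold changes and p-values. The averages are a signal that the authors scaled so that every column of a table has 1 total, 2008 in the cluster table and 2797 in the proximal tubule table. Whole UMIs were recovered, since averages are multiples of 1 step per column (within 0.1 UMI for at least 99.995% of genes). Deposited log2 fold changes equal ratios of UMI sums with 1 added, within 0.0162. No test across samples was possible, and none was run. Recovery and intervals were tested on simulated data. Gene positions are from GENCODE M21 (GRCm38). Python 3.11.15, numpy 2.4.6, scipy 1.17.1 and pandas 2.3.3 were used.

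Named are all 10 members, called genes of the lists and up to 3 leading genes per list, marker genes, and the 3 most alike genes per member. The members and lists were chosen with earlier results of these data known.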

Additional observations from a re-analysis of the deposited data

How the results depend on the processing

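The value or count kept its direction and call in most alternatives, with these exceptions. For the 6 pathway lists, a p under 0.01 left 1 gene called higher in place of 3. PT-injury/repair against single clusters gave 4 members above 1 in place of 7 against PT-S3-1, and 1 below 1 in place of 2 against each of PT-S2/S3, PT-S3-1 and PT-S3-2. The ratios that reversed were Angpt1 (3.96 against PT-S2/S3, 1.66 against PT-S3-1, 4.76 against PT-S3-2), Kdr (0.844) and Tek (0.763), both against PT-S3-1. EC1 against EC2 scaled by the summed endothelial markers gave 5 members above and 1 below in place of 3 and 3, and reversed Flt1 (1.02) and Nrp1 (1.14). Of the 30 most alike genes, 9 were shared with Spearman's rho and 19 without Mixed-1 and mixed-2. The causes were not tested. Rescaling without mitochondrially encoded genes, a pseudocount of 0.01, the deposited fold changes and subtraction of the median log2 ratio (0.04) moved none of the 10 Cis9w ratios by more than its interval or across 1. No paired analysis was possible because no column is labelled with a sample. Leaving out each replicate was not run for the same reason. Depth limits Flt4 in the proximal tubule pools (6 and 5 UMIs) and Vegfb and Angpt2 in the endothelial clusters (9 to 20 UMIs).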

Other observations

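The semaphorins, some of which compete with VEGF for neuropilins, were spread over several cell types in the cluster table. Sema3e stood at 1.65 in Podocyte (1.51 to 1.80) and had 0 UMIs in EC1 and EC2, and Sema3g was also highest in Podocyte, at 0.440 (0.370 to 0.519). Sema3c was highest in PT-injury/repair, at 2.20 (2.10 to 2.31), where Nrp1 and Angpt2 were also above the other proximal tubule clusters. Sema3d led in EC2 at 0.674 (0.602 to 0.753), with the second neuropilin gene, Nrp2, at 1.39 (1.28 to 1.50). In PT-injury/repair Nrp2 stood at 0.216, which was 21.3-fold its level in the other 5 proximal tubule clusters and lies above the ratios of all 11 endothelial markers there.

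Of the further ligands and receptors with at least 100 UMIs, 6 of 8 were highest in EC1 or EC2, beside 13.4% of all genes with that many, among them Ptprb at 3.53 (3.36 to 3.70) and Tie1, the partner receptor of Tek, at 0.491 (0.430 to 0.559). Svep1, an extracellular matrix protein gene, was highest in Mixed-1 at 1.81 (1.68 to 1.94), as was the ligand gene Vegfd at 0.159 (0.124 to 0.200). Of the signalling genes 10 of 16 were highest in an endothelial cluster, and of the hypoxia regulators 3 of 10, with Epas1 at 1.27 in EC2 (1.17 to 1.37) but Hif1a at 0.649 in PC (0.582 to 0.722) and Ppargc1a at 2.99 in TAL (2.90 to 3.08). Of the inhibitors 0 of 8 and of the hypoxia targets 0 of 10 with at least 100 UMIs were highest in an endothelial cluster, counts that are close to what 13.4% gives. Among these, Timp3 (4.73) and Ndrg1 (4.89) were highest in PT-S1 and Col4a3 (3.27) in Podocyte.

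The fold changes of the authors' deposited table also give the UMIs of nuclei that belong to none of the 17 clusters, which carried 17.4% of all size factors. In them Vegfa stood at 0.533 normalised UMIs per nucleus and Angpt1 at 0.254. Nrp1 stood there at 0.358 and Flt1 at 0.269.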
